A study of Homo sapiens with 8 samples.

Results

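The genes examined here were 36 genes of macroautophagy, chosen by name for their known place in the pathway: the ULK initiation complex (5 genes), the class III PI3-kinase complex (5), the readers of its lipid product and the lipid suppliers (6), the conjugation enzymes (10), the ATG8 proteins (5) and the cargo receptors (5). Across all 8 libraries 12235 genes had a value, and 35 of the 36 were among them, since MAP1LC3A was listed in none. Ribosome profiling, which sequences the mRNA fragments that ribosomes shield from nuclease, used HEK293T, a human kidney line of embryonic origin that carries SV40 large T antigen. Cells were kept in a DMEM with dialyzed serum and all amino acids (Suff) or in the same medium without arginine (Arg-), leucine (Leu-) or methionine (Met-), overnight according to the sample records. Each of these 4 media was profiled with cycloheximide (CHX), a drug that arrests elongating ribosomes, given before lysis, and in a separate series without it. This gave 8 libraries, 1 per condition, and no replicates.

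Values are RPKM, the footprints on a coding sequence relative to how long it is and to how many footprints the library held on all coding sequences. RPKM is a share of each library, so a change common to all mRNAs does not appear in it. Without CHX the libraries held 3139745 footprints in Suff, 1610707 in Arg-, 1496852 in Leu- and 1302523 in Met- medium. With CHX they ranged from 538222 in Met- to 6434043 in Leu- medium. No mRNA under 5 reads was listed without CHX, and none under 64 reads with it, so an mRNA that is not listed had fewer reads and was not necessarily absent. Of the 36 genes, 35 were listed in Suff, 34 in Arg-, 34 in Leu- and 33 in Met- medium without CHX. With CHX the same order gave 16, 27, 28 and 5 genes. Of 8 genes typical of this line, VIM was listed in all 8 libraries, LIN28B and NEFL in 7 and the others in 2 to 6, while PTPRC, CD3E, HBB, ALB and DCN were listed in none and COL3A1 in 1, at 0.434 RPKM.

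Macroautophagy encloses cytoplasm in a double membrane, the autophagosome, and delivers it to the lysosome, where its proteins are broken down to amino acids. The ULK kinase complex, which mTORC1 inhibits when amino acids are plentiful, activates the class III PI3-kinase complex, whose lipid product recruits WIPI proteins and the ATG2 lipid carriers. A ubiquitin-like conjugation system then attaches ATG8 proteins (the LC3 and GABARAP families) to phosphatidylethanolamine in the growing membrane, and receptors such as p62 tie cargo to them. ATG8 proteins and receptors are themselves consumed in the lysosome. Footprints count ribosomes on coding sequences, and measure neither the rate of synthesis nor the amount of protein. Without matched mRNA levels they do not separate more mRNA from more ribosomes on each mRNA.

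The ATG8 genes are short and alike, and the footprints had been kept only where they mapped uniquely, so their sequences set what could be measured. The first 60 coding bases of the 3 GABARAP family members are shown because these mRNAs span the largest differences in level among the ATG8 genes. They were read from GENCODE release 44 transcripts on GRCh38: GABARAP at chr17:7240008-7242449 on the minus strand, GABARAPL1 at chr12:10212836-10220831 and GABARAPL2 at chr16:75566379-75577881, both on the plus strand. Capitals mark the 30 of 60 positions at which the 3 mRNAs did not all carry the same base.
GABARAP: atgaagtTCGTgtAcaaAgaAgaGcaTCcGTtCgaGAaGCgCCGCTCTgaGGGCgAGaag
GABARAPL1: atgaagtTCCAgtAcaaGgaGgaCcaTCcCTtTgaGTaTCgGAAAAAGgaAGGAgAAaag
GABARAPL2: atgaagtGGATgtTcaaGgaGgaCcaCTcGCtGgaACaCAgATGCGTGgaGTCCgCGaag

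GABARAPL2 shared none of its 28-base coding windows with another annotated gene, and over its 354 coding bases it was 62.4% identical to GABARAP. GABARAPL1 shared 18.1% of its windows with the noncoding copy GABARAPL3. GABARAP shared 80.4% of its windows with other annotated genes, although 0% with any other coding transcript, and whether those entries were in the transcriptome used for mapping is not given in the sources used here. MAP1LC3B, which encodes LC3B, was the extreme case: 84% of its windows were also in a coding transcript of another gene, and its 378 coding bases differed from those of MAP1LC3B2 at 2 positions. A stretch of 60 bases that holds 1 of these positions, in capitals, is shown for MAP1LC3B (chr16:87392336-87404774, plus strand) and MAP1LC3B2 (chr12:116559381-116576606, plus strand).
MAP1LC3B: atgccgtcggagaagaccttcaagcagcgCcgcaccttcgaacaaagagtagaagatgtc
MAP1LC3B2: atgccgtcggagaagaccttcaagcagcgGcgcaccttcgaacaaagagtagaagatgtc

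MAP1LC3B2 was listed in no library. If it was in the transcriptome used for mapping, a footprint that fits both genes would have been dropped. Otherwise that footprint would have been counted for MAP1LC3B, whichever gene it came from. The values of MAP1LC3B are therefore uncertain. Of the other members, WDR45 shared 53.4% of its windows with another gene, ATG12 45.2% and ATG9A 29.6%, while ATG4A shared 3.59%, WIPI2 3.06% and NBR1 0.209%. The main transcripts of the remaining listed members shared none.

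The mRNAs of the machinery held footprints at uneven levels in sufficient medium. Without CHX the highest members were GABARAPL2 at 507 RPKM and GABARAP at 496 RPKM, whose ratio had a counting interval of 0.907 to 1.15, so that their order was not resolved. They stood at the 96.3 and 96.2 percentiles of all genes listed in that library. ATG3, the E2-like enzyme that hands ATG8 to the lipid, followed at 143 RPKM, and GABARAP exceeded it by an interval of 3.05 to 3.95-fold. The receptor SQSTM1 (p62) came next at 124 RPKM, and then ATG4B, the main ATG8 protease, at 84.6, ATG101, the stabilizing subunit of the ULK complex, at 73.2 and ATG12, the ubiquitin-like partner of ATG5, at 68.5 RPKM. Between neighbours in the order of all 35 members, the interval of the ratio excluded 1 at 4 places: below GABARAP, below ATG3, below SQSTM1 and below ATG9A.

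The lipid kinase PIK3C3 (VPS34) stood near the bottom of this order at 2.75 RPKM, and its partner PIK3R4 (VPS15) was at 4.06 RPKM. Of the ULK kinases, ULK1 ranked 24 of 35 at 10.5 RPKM, and ULK2 had the lowest value of any listed member, 0.921 RPKM. The ATG8 mRNAs alone held over 0.5 of the summed level: in Suff medium without CHX they summed to 1069 of 2020 RPKM, the conjugation enzymes to 445, the receptors to 232, the lipid readers and suppliers to 112, the ULK complex to 110 and the PI3-kinase complex to 51.8 RPKM. In Met- medium the ATG8 sum was 614 RPKM and the ULK sum 256 RPKM, while the PI3-kinase sum was 66.6 RPKM.

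**Figure D1:**
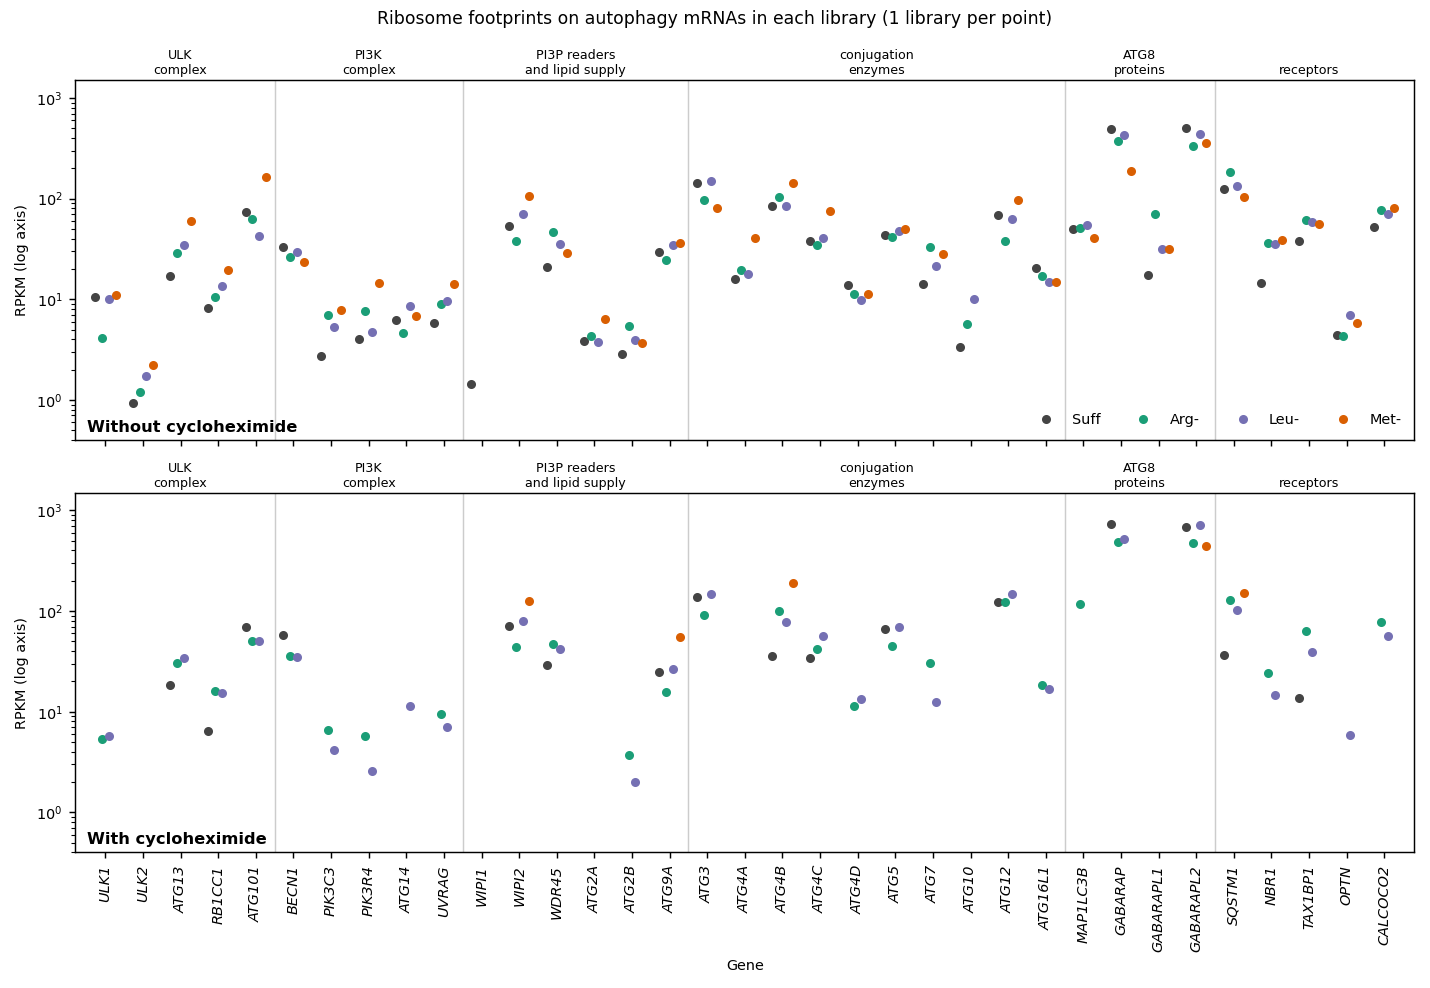
RPKM on a log axis for the 35 listed members, grouped by step, in the series without (upper panel) and with cycloheximide (lower panel). Each point is 1 library, coloured by medium, and a missing point is a gene that was not listed; GABARAP and GABARAPL2 stand above all other members in Suff medium, at 496 and 507 RPKM without cycloheximide.

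Each starved library was set against the sufficient library of its own series. A member entered when it was listed in both libraries with a mean of at least 10 RPKM, and it was counted when its log2((RPKM + 1)/(RPKM in Suff + 1)) was at least 1 in size, that is 2-fold on this scale, which understates low mRNAs. Folds given below are plain ratios of RPKM with an exact (Clopper-Pearson) 95% interval from the recovered reads. With 1 library per condition there was no test, and these intervals cover counting error only: PCR copies are not independent molecules, and the variation between cultures is unknown.

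Without CHX, 4 of 23 members were at least 2-fold higher in Arg- medium (WDR45, ATG7, GABARAPL1 and NBR1), against 8.23% of all 7448 genes compared, and 0 were at least 2-fold lower, against 5.95%. In Leu- medium 1 of 25 members, NBR1, was higher, against 6.85% of 7558 genes, and 0 were lower, against 2.06%. In Met- medium 6 of 26 were higher (ATG13, RB1CC1, ATG101, UVRAG, ATG4A and NBR1), against 20.2% of 7884 genes, and 1, GABARAP, was lower, against 5.34%. UVRAG and RB1CC1 were under 10 RPKM in Suff medium and passed the minimum only through their higher Met- value, so they had to lie above Suff there. The median log2 ratio of the members was -0.06 in Arg-, 0.14 in Leu- and 0.51 in Met- medium, where the medians of all genes were -0.02, 0.14 and 0.32. The median of the members thus lay close to that of all genes in each medium. Taken relative to the median of all genes, the Met- split became 2 members higher (ATG13 and NBR1) and 2 lower (ATG3 and GABARAP), against 10.7% of all genes in each direction.

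With CHX, 4 of 16 members were at least 2-fold higher in Arg- medium, against 16.6% of 5074 genes, and 0 lower, against 19.7%. The same 4 of 16 were higher in Leu- medium, against 12.1% of 5208 genes, and 0 lower, against 7.28%. They were RB1CC1, ATG4B, SQSTM1 and TAX1BP1, and both counts rest on 1 sufficient library. RB1CC1, at 6.45 RPKM in Suff medium with CHX, passed the minimum only through its higher starved values, so it had to lie above Suff. In Met- medium 3 of the 5 members listed in both libraries were higher (ATG9A, ATG4B and SQSTM1), against 46.7% of 1890 genes, and 0 lower, against 9.79%. At the 64-read minimum of that Met- library, all 3 would already have lain above Suff, so being listed fixed their direction. ATG4B and SQSTM1 would also have passed 2-fold. The medians of the members were -0.23, 0.21 and 1.12 in Arg-, Leu- and Met- medium, beside -0.23, 0.02 and 0.89 for all genes.

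**Figure D2:**
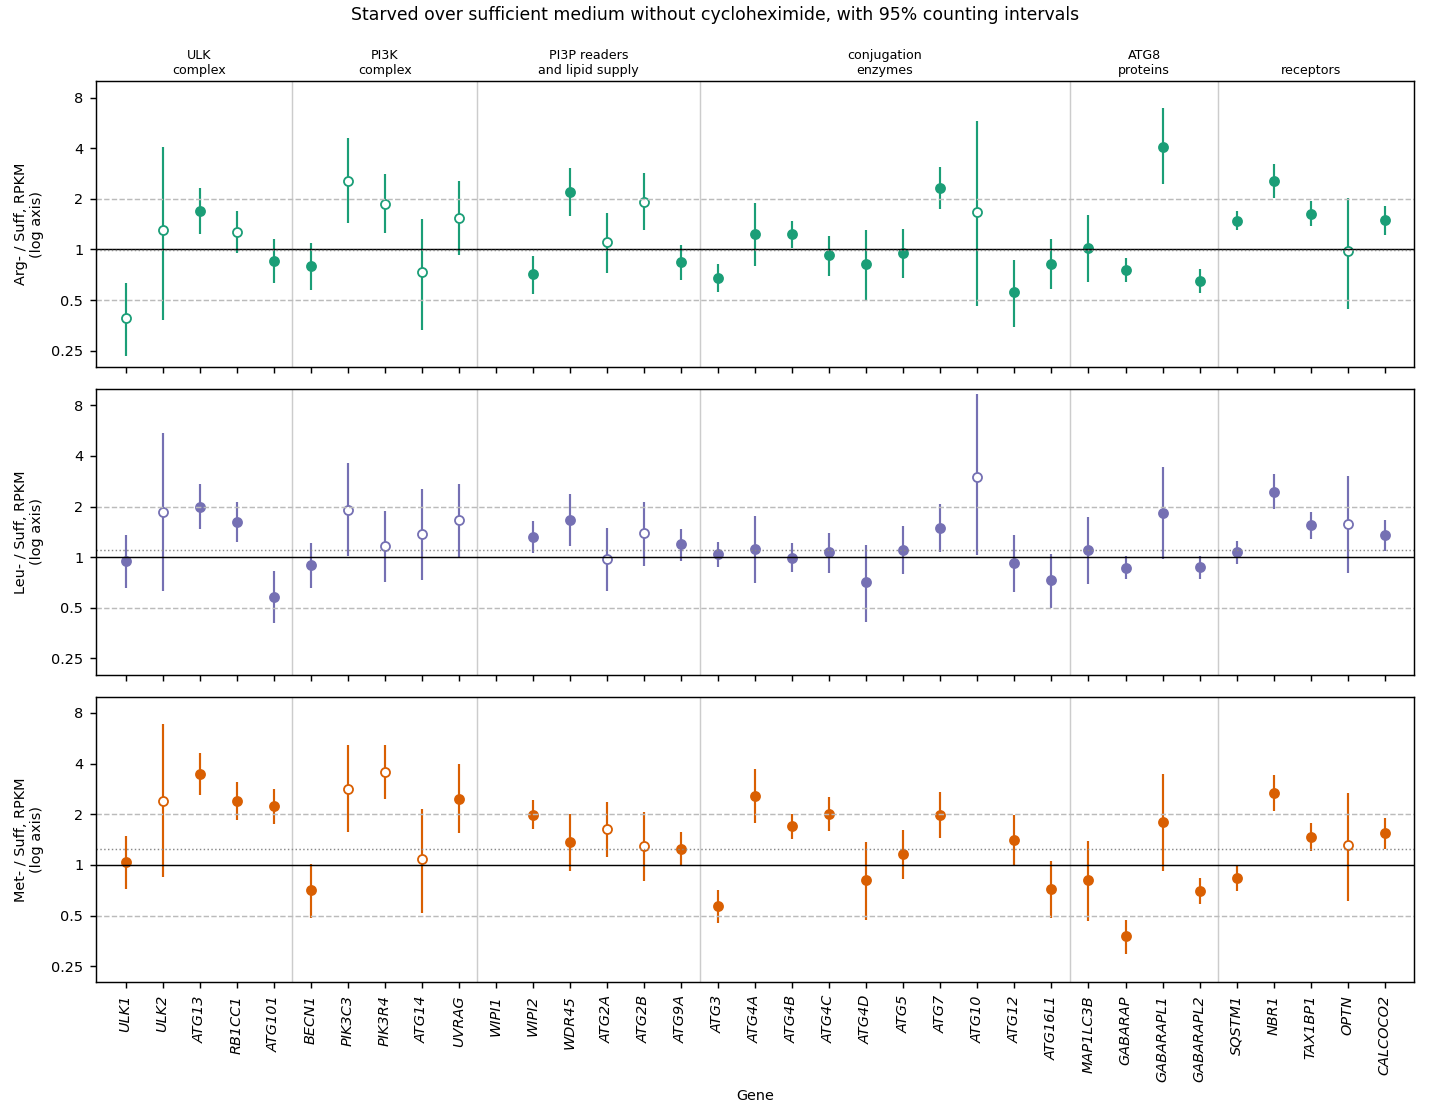
Ratio of RPKM in Arg-, Leu- and Met- medium to Suff medium without cycloheximide (log axis), 1 point per member with its exact 95% counting interval. Open points had a mean below 10 RPKM, the solid line marks 1, the dashed lines 0.5 and 2, and the dotted line the median of all genes; NBR1 lies above the 2-fold line in all 3 panels and GABARAP is below the 0.5 line in Met- medium.

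All 4 receptors past the minimum were above Suff in Arg- and Leu- medium without CHX, and 3 of the 4 in Met- medium, where 3618 of 7448, 4612 of 7558 and 5173 of 7884 genes were above Suff in the same order of media. NBR1, which binds ubiquitin and ATG8 proteins and hands aggregates and peroxisomes to the autophagosome, had 14.4 RPKM in Suff, 36.6 in Arg-, 35.2 in Leu- and 38.4 in Met- medium without CHX. The 3 starved libraries were alike and all stood well above the sufficient one. The folds over Suff were 2.54 (2.01 to 3.22), 2.45 (1.93 to 3.12) and 2.67 (2.09 to 3.41), all sharing the 131 reads of the sufficient library. NBR1 was the only member at least 2-fold apart in all 3 media. With CHX it was listed at 24.4 RPKM in Arg- and 14.7 in Leu- medium and was not listed in Suff medium, where 64 reads would have been 8.63 RPKM.

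TAX1BP1, a ubiquitin-binding receptor that also recruits autophagy initiation factors, was also above Suff in all 3 media without CHX, at a smaller size. It had 37.8 RPKM in Suff, 61.5 in Arg-, 58.5 in Leu- and 55.3 in Met- medium without CHX. The CHX series gave 13.6 RPKM in Suff, 63.2 in Arg- and 39.1 in Leu- medium, which is 4.65-fold (3.68 to 5.95) and 2.88-fold (2.27 to 3.69) over Suff. In each series the sufficient library was the lowest in which TAX1BP1 was listed, and in Met- medium with CHX, where 64 reads would have been 53.1 RPKM, it was not listed. The listed transcript of TAX1BP1 differed between the series, so levels are compared only within a series.

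SQSTM1, the archetypal receptor p62, did not follow 1 order. Without CHX it had 124 RPKM in Suff, 184 in Arg-, 132 in Leu- and 103 in Met- medium, so that only Arg- was clearly above Suff, by 1.48-fold (1.3 to 1.7), the Leu- interval, 0.916 to 1.24, included 1, and Met- was 1.2-fold (1.01 to 1.43) below Suff. With CHX it had 36.7 RPKM in Suff, 129 in Arg-, 103.5 in Leu- and 152 in Met- medium, with folds of 3.51 (2.91 to 4.27), 2.82 (2.33 to 3.43) and 4.14 (3.17 to 5.41). Met- medium was thus the lowest of 4 libraries in one series and the highest in the other. With CHX, however, the read minimum for listing in Met- medium already lay above the Suff value. SQSTM1 could therefore be listed there only above Suff. Relative to the median of all genes, the log2 ratio in Met- medium was -0.58 without CHX and 1.13 with it.

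CALCOCO2 (NDP52), a receptor for invading bacteria and damaged mitochondria, had 51.6 RPKM in Suff, 76.9 in Arg-, 69.97 in Leu- and 79.9 in Met- medium without CHX. Its folds of 1.49 (1.22 to 1.82), 1.36 (1.09 to 1.67) and 1.55 (1.25 to 1.91) were under 2, as were those of TAX1BP1 without CHX. OPTN, optineurin, was low throughout, at 4.41 RPKM in Suff and between 4.3 and 6.94 RPKM in starved medium, and its counting intervals all included 1. The 4 receptors past the minimum had log2 ratios from 0.57 to 1.29 in Arg-, from 0.09 to 1.24 in Leu- and from -0.26 to 1.36 in Met- medium.

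**Figure D3:**
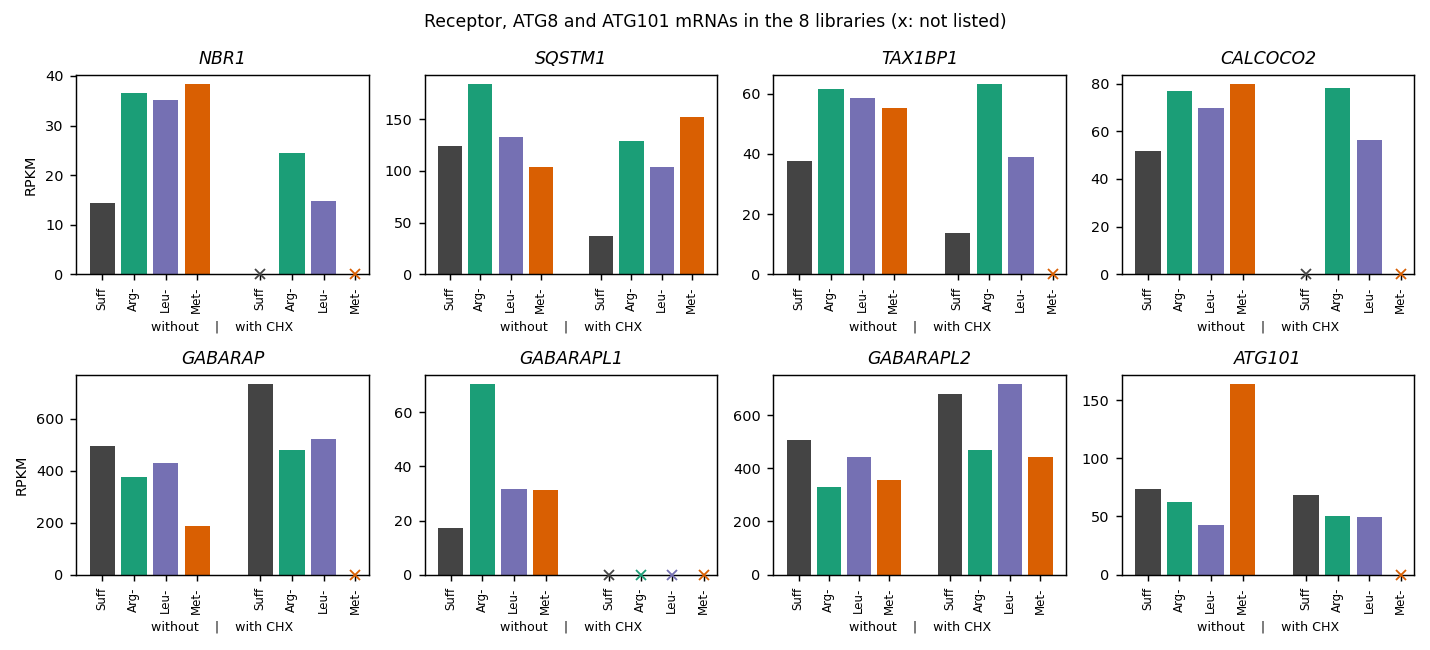
RPKM of 4 receptor, 3 ATG8 and the ATG101 mRNAs in the 4 media without cycloheximide (left bars) and with it (right bars), 1 library per bar and a cross where the gene was not listed. NBR1 is higher in every starved library than in Suff without cycloheximide, GABARAPL1 is highest in Arg- medium at 70.4 RPKM, and GABARAP and GABARAPL2 are highest in Suff medium without cycloheximide.

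The ATG8 genes went apart from each other. GABARAP, which promotes closure of the autophagosome and binds the ULK complex, had 496 RPKM in Suff, 375 in Arg-, 430.3 in Leu- and 187 in Met- medium without CHX. The Met- value was 2.66-fold (2.11 to 3.38) below Suff and 2.31-fold (1.79 to 2.99) below Leu- medium. With CHX GABARAP had 733 RPKM in Suff, 482 in Arg- and 521 in Leu- medium, again highest in Suff, and it was not listed in Met- medium, where 64 reads would have been 339 RPKM.

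GABARAPL2 (GATE-16), the paralog best separated in sequence, was also highest in Suff medium without CHX, at 507 RPKM, against 329.7 in Arg-, 442 in Leu- and 356 in Met- medium. It was below Suff by 1.54-fold (1.3 to 1.82) in Arg- and 1.42-fold (1.19 to 1.71) in Met- medium, while the Leu- interval of 0.983 to 1.34 included 1. With CHX it had 681 RPKM in Suff, 469.7 in Arg-, 717 in Leu- and 445 in Met- medium, again with Arg- and Met- below Suff by 1.45-fold (1.3 to 1.61) and 1.53-fold (1.22 to 1.95). In both series the Arg- and Met- libraries were the lower ones and Leu- lay close to Suff.

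GABARAPL1 (GEC1), the remaining paralog, was lowest in Suff medium. It had 17.3 RPKM in Suff, 70.4 in Arg-, 31.8 in Leu- and 31.3 in Met- medium. The Arg- value was 4.06-fold (2.45 to 6.91) over Suff, the largest fold of any member without CHX past the minimum, and 2.21-fold (1.3 to 3.88) over Leu- medium. These levels rest on 24, 50, 21 and 18 reads, and the listed transcript is a long form with 441 coding bases. GABARAPL1 was listed in no library with CHX. MAP1LC3B, with the shared sequence described above, had 49.7 RPKM in Suff, 50.9 in Arg-, 54.8 in Leu- and 40.6 in Met- medium, from 59, 31, 31 and 20 reads, and all 3 intervals included 1. With CHX it was listed in Arg- medium alone, at 116 RPKM for a transcript with a shorter coding sequence.

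Of the ULK complex, ATG13, RB1CC1 and ATG101 were highest in Met- medium without CHX, the medium in which 50% of all genes had the highest of their 3 ratios. Relative to the median of all genes, their log2 ratios there were 1.42, 0.85 and 0.83. ATG13, the adaptor subunit that ULK1 and mTORC1 phosphorylate, had 17.2 RPKM in Suff, 28.9 in Arg-, 34.4 in Leu- and 59.5 in Met- medium without CHX. All 3 starved libraries were above Suff, by 1.69-fold (1.23 to 2.31), 2.0-fold (1.47 to 2.73) and 3.47-fold (2.62 to 4.6), and Met- was 1.73-fold (1.31 to 2.3) over Leu-. With CHX ATG13 had 18.4 RPKM in Suff, 30.8 in Arg- and 33.97 in Leu- medium, with folds close to those without CHX, 1.67 (1.28 to 2.21) and 1.85 (1.43 to 2.41).

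RB1CC1 (FIP200), the large scaffold of the complex, had 8.25 RPKM in Suff, 10.5 in Arg-, 13.4 in Leu- and 19.7 in Met- medium without CHX, the last 2.39-fold (1.85 to 3.09) over Suff. The series with CHX gave 6.45 RPKM in Suff, 16.2 in Arg- and 15.3 in Leu- medium, 2.52-fold (1.97 to 3.25) and 2.38-fold (1.87 to 3.06) over Suff. The 5 starved libraries in which it was listed were all above their sufficient library, although the Arg- interval without CHX, 0.95 to 1.7, included 1. It was not listed in Met- medium with CHX, where 64 reads would have been 24.9 RPKM.

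ATG101, the HORMA-domain partner of ATG13, had the widest spread between 2 starved media of the members past the minimum without CHX. It had 73.2 RPKM in Suff, 62.4 in Arg-, 42.7 in Leu- and 164 in Met- medium without CHX. Met- was 2.23-fold (1.76 to 2.83) over Suff, Leu- was 1.71-fold (1.21 to 2.47) below it, and Met- exceeded Leu- by 3.83-fold (2.7 to 5.55). With CHX it had 68.7 RPKM in Suff, 50.05 in Arg- and 49.9 in Leu- medium, both below Suff, and it was not listed in Met- medium.

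The kinase ULK1 was the 1 member of its complex that was lower in Arg- medium beyond 2-fold. It had 10.5 RPKM in Suff, 4.14 in Arg-, 9.96 in Leu- and 10.96 in Met- medium, from 104, 21, 47 and 45 reads. The Arg- value was 2.54-fold (1.58 to 4.28) below Suff, but the mean of that pair was under 10 RPKM and so it is not in the counts above. With CHX ULK1 was listed at 5.39 RPKM in Arg- and 5.77 in Leu- medium, 1.07-fold (0.804 to 1.43) apart, so the gap between these media was not seen there. ULK2 held between 6 and 9 reads in each library without CHX, too few to order the media.

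The PI3-kinase complex held BECN1 at one level and its other genes at lower ones. BECN1 (Beclin 1), the regulatory subunit that BCL2 can sequester, had 32.96 RPKM in Suff, 26.2 in Arg-, 29.6 in Leu- and 23.3 in Met- medium, and all 3 intervals included 1. With CHX it had 58.4 RPKM in Suff, 35.5 in Arg- and 35.2 in Leu- medium, 1.65-fold (1.36 to 1.99) and 1.66-fold (1.38 to 1.99) below Suff. BECN1 was therefore lower in starved medium in every library in which it was listed, beyond counting error only with CHX.

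UVRAG, the subunit of the endosomal and late autophagic form of the complex, had 5.76 RPKM in Suff, 8.87 in Arg-, 9.54 in Leu- and 14.3 in Met- medium, the last 2.47-fold (1.54 to 3.97) over Suff. PIK3C3 had 2.75, 6.99, 5.27 and 7.78 RPKM in the same order, and PIK3R4 had 4.06, 7.61, 4.75 and 14.5 RPKM. Both kinase subunits were under the minimum. PIK3C3 was 2.54-fold (1.43 to 4.58) higher in Arg- and 2.83-fold (1.56 to 5.17) higher in Met- medium, and PIK3R4 was 3.57-fold (2.48 to 5.18) higher in Met- medium. ATG14, which directs the complex to the sites of autophagosome formation, stood between 4.62 and 8.58 RPKM on 11 to 29 reads, and its intervals all included 1.

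Among the readers of the lipid and the lipid suppliers, WIPI2 and WDR45 ordered the starved media in opposite ways without CHX. WIPI2, which recruits ATG16L1 to the membrane, was listed in all 8 libraries. It had 53.2 RPKM in Suff, 37.8 in Arg-, 69.99 in Leu- and 106 in Met- medium without CHX, and 71.4, 43.5, 79.9 and 125.5 RPKM with CHX. The order of the 4 media was the same in both series, lowest in Arg- and highest in Met-. With CHX the highest place of Met- was fixed by the read minimum for listing. WIPI2 could be listed in that library only above its level in every other library with CHX. The order of the other media was not fixed in this way. Met- exceeded Arg- by 2.8-fold (2.15 to 3.67) without CHX and 2.88-fold (2.26 to 3.65) with it. Against the median of all genes, however, its log2 ratio to Suff in Met- medium was 0.66 without CHX and -0.08 with it.

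WDR45 (WIPI4), which binds ATG2, had 21.1 RPKM in Suff, 46.2 in Arg-, 35.3 in Leu- and 28.9 in Met- medium without CHX, and the Arg- value was 2.19-fold (1.58 to 3.03) over Suff. Its values with CHX were 28.9 RPKM in Suff, 47.2 in Arg- and 41.9 in Leu- medium, 1.64-fold (1.27 to 2.13) and 1.45-fold (1.13 to 1.88) over Suff. Arg- was the highest of the 4 libraries without CHX, and of the 3 in which WDR45 was listed with CHX: 64 reads in Met- medium would have been 110 RPKM. Its shared windows, mostly with an overlapping readthrough gene, make the level uncertain.

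ATG9A, the lipid scramblase whose vesicles seed the membrane, had 29.2 RPKM in Suff, 24.6 in Arg-, 34.7 in Leu- and 36.6 in Met- medium without CHX, and 24.98, 15.8, 26.3 and 55.4 RPKM with CHX. Its order in the 4 media was again lowest in Arg- and highest in Met- in both series. With CHX the highest place of Met- was again fixed by the read minimum for listing, which lay above every other library with CHX. In that series ATG9A was 1.58-fold (1.28 to 1.96) below Suff in Arg- and 2.22-fold (1.66 to 2.93) above it in Met- medium. Without CHX the intervals of 0.661 to 1.07 and 0.996 to 1.57 included 1. Relative to the median of all genes, its log2 ratio in Met- medium with CHX was 0.23, no longer 2-fold. The lipid carriers ATG2A and ATG2B had between 2.86 and 6.34 RPKM without CHX, and ATG2A was listed in no library with CHX. WIPI1 was listed only in Suff medium without CHX, at 1.43 RPKM from 6 reads.

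Of the 9 conjugation enzymes past the minimum without CHX, 3 were above Suff in Arg-, 5 in Leu- and 6 in Met- medium. Of all genes, 3618 of 7448, 4612 of 7558 and 5173 of 7884 were above Suff in the same order. Only ATG7, in Arg- medium, and ATG4A, in Met- medium, were at least 2-fold apart from Suff without CHX, both higher. That was 11.1% of the 9 enzymes in each of these media, against 8.23% and 20.2% of all genes. ATG7, the E1-like enzyme that activates both ubiquitin-like proteins, had 14.3 RPKM in Suff, 33.2 in Arg-, 21.5 in Leu- and 28.4 in Met- medium without CHX. Arg- was 2.32-fold (1.75 to 3.08) over Suff and 1.54-fold (1.13 to 2.12) over Leu-. With CHX ATG7 was listed at 30.2 RPKM in Arg- and 12.4 in Leu- medium, 2.44-fold (2.02 to 2.96) apart, and it was not listed in Suff, where 64 reads would have been 11.9 RPKM.

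ATG3 had 143 RPKM in Suff, 96.6 in Arg-, 148.5 in Leu- and 81.2 in Met- medium without CHX. Arg- and Met- were 1.48-fold (1.22 to 1.8) and 1.76-fold (1.41 to 2.21) below Suff, and Leu- lay at its level. The values with CHX were 138 RPKM in Suff, 91.6 in Arg- and 147 in Leu- medium, the same arrangement, with Arg- 1.51-fold (1.3 to 1.75) below Suff.

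The ATG4 proteases, which prime ATG8 proteins and release them from lipid, differed among themselves. ATG4A had 15.96 RPKM in Suff, 19.7 in Arg-, 17.9 in Leu- and 41.05 in Met- medium, the last 2.57-fold (1.78 to 3.72) over Suff. ATG4B had 84.6, 104, 84.2 and 143.5 RPKM without CHX and 35.97, 99.5, 78.1 and 191 RPKM with CHX. Met- was the highest library of both series, but with CHX that place was fixed by the read minimum for listing. In that series ATG4B could be listed in Met- medium only above every other library, and more than 2-fold above Suff. Its folds in Met- medium were 1.7 (1.42 to 2.02) without CHX and 5.3 (4.04 to 6.97) with it, or 1.48 as a log2 ratio relative to the median of all genes in the latter, and its listed transcript differed between the series. ATG4C had 37.7 RPKM in Suff and 75.3 in Met- medium, 2.0-fold (1.58 to 2.52), which was just under 2-fold once 1 RPKM was added to both. ATG4D had between 9.85 and 13.9 RPKM without CHX and all its intervals included 1.

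The complex that directs conjugation to the membrane was within 2-fold of Suff in each comparison. ATG5 had from 41.2 to 50.07 RPKM without CHX, with all 3 intervals including 1, and ATG16L1 had 20.6 RPKM in Suff and from 14.7 to 16.9 RPKM in starved medium, also with every interval including 1. With CHX ATG5 had 66.8 RPKM in Suff, 44.5 in Arg- and 70.1 in Leu- medium, and Arg- was 1.5-fold (1.2 to 1.88) below Suff. ATG12 had 68.5 RPKM in Suff, 38.2 in Arg-, 63.2 in Leu- and 96.2 in Met- medium, and Met- exceeded Arg- by 2.52-fold (1.55 to 4.2). With CHX ATG12 had 124 RPKM in Suff, 123 in Arg- and 149 in Leu- medium, so the lower Arg- value without CHX had no counterpart there. ATG10, the second E2-like enzyme, held 7, 6 and 10 reads in Suff, Arg- and Leu- medium and was not listed in Met- medium.

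The series with and without CHX had separate sufficient libraries, so the direction of a member could be compared between them. In Arg- medium 14 of 15 members past the minimum in both series lay on the same side of 1, against 71.1% of 4765 genes, and ATG4C was the exception. In Leu- medium 13 of 16 did, against 71.2% of 4871 genes, with ATG4B, ATG12 and GABARAPL2 on opposite sides. In Met- medium 4 of 5 did, against 70.5% of 1797 genes, and SQSTM1 was the exception. With CHX, WIPI2, ATG9A, ATG4B and SQSTM1 could be listed in Met- medium only above Suff, so their direction there was fixed by the read minimum. The Met- count therefore compared free directions for GABARAPL2 alone. The sizes differed between the series for several members. Among the members past the minimum in both series, only WDR45, in Arg- medium, was at least 2-fold higher without CHX. A repeat with CHX could thus be read for WDR45 alone. Its log2 ratio in Arg- medium was 1.09 without CHX and 0.69 with it. The 4 members counted with CHX in Arg- medium had log2 ratios of 1.21 to 2.14 there, and in Arg- medium without CHX ATG4B had 0.29, RB1CC1 0.31, SQSTM1 0.57 and TAX1BP1 0.69. These 4 had sufficient values with CHX of 6.45 to 36.7 RPKM. Duplicate removal, transcript choice and the listing minimum differed between the series, and their part in these sizes was not tested.

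**Figure D4:**
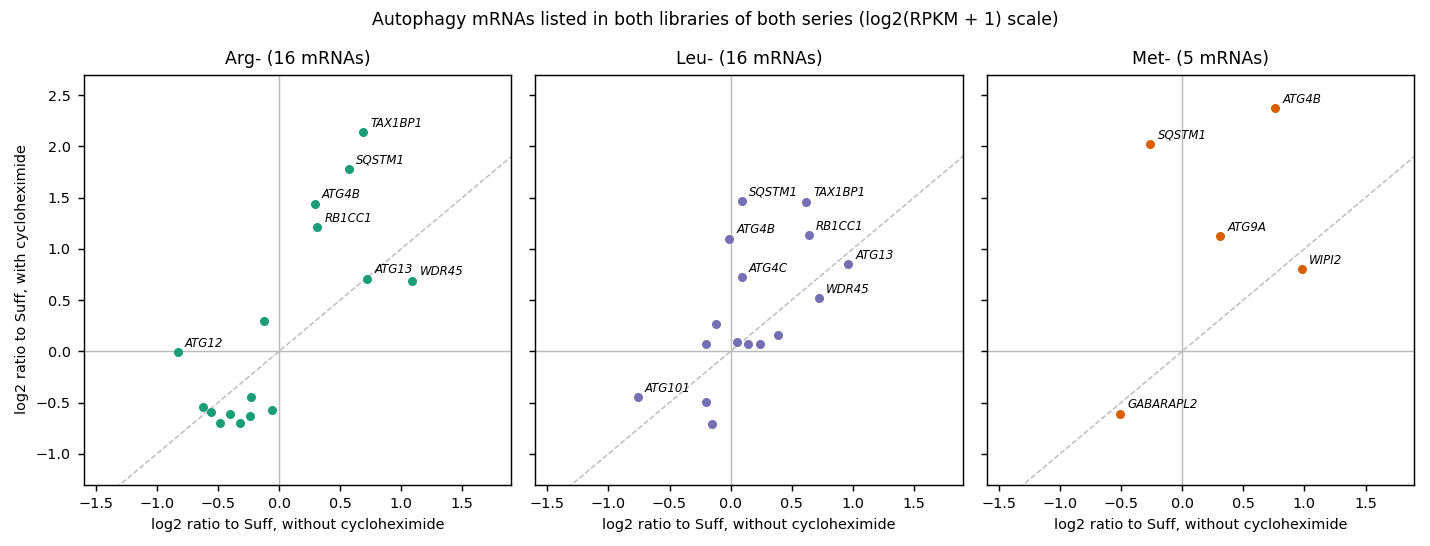
Log2 ratio of starved to Suff medium with cycloheximide against that without it, for members listed in both libraries of both series (16 in Arg-, 16 in Leu- and 5 in Met- medium). The dashed line marks equal ratios; RB1CC1, ATG4B, SQSTM1 and TAX1BP1 lie above it in the Arg- and Leu- panels, and SQSTM1 lies left of 0 only in the Met- panel.

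Longer coding sequences tended to have higher ratios among the members, as among all genes. The Spearman coefficient between coding length and log2 ratio without CHX was 0.38 in Arg-, 0.38 in Leu- and 0.41 in Met- medium across 23, 25 and 26 members, beside 0.36, 0.31 and 0.44 across all genes. These are descriptions across genes of the same pair of libraries, and the 3 media share the sufficient one. GABARAP and GABARAPL2, at 354 coding bases, were the shortest members, and NBR1, at 2901, the longest of those past the minimum in all 3 media. The part of coding length in the ratios of single members was not tested.

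A further 49 autophagy genes outside the 36 were read in the same way. In Arg- medium without CHX 30 passed the minimum, with a median log2 ratio of 0.16, 2 at least 2-fold higher (6.67%, against 8.23% of all genes) and 2 lower (6.67%, against 5.95%). In Leu- medium 30 passed, with a median of 0.24, 2 higher (6.67%, against 6.85%) and 0 lower, against 2.06%. In Met- medium 33 passed, with a median of 0.47, 9 higher (27.3%, against 20.2%) and 0 lower, against 5.34%. Of these 9, only NCOA4 and FOXO3 had at least 10 RPKM in Suff medium, at 41.1 and 36.1 RPKM. The others passed the minimum only through their Met- value, so they had to lie above Suff there. With CHX 23 passed in Arg- medium, with 1 higher (4.35%, against 16.6% of all genes) and 5 lower (21.7%, against 19.7%). In Leu- medium with CHX 23 passed, with 0 higher, against 12.1%, and 1 lower (4.35%, against 7.28%). The members had 4 higher (25%), RB1CC1 among them, and 0 lower in both of these media. In Met- medium with CHX 5 further genes passed, with 1 higher (20%, against 46.7%) and 0 lower, against 9.79%. Of these genes, 3 were at least 2-fold higher in 2 of the 3 comparisons without CHX, all under 10 RPKM in Suff medium, so that they passed the minimum only through the libraries in which they were high. CALCOCO1, a Golgi and endoplasmic reticulum receptor, had 7.98 RPKM in Suff, 21.2 in Arg-, 16.7 in Leu- and 24.04 in Met- medium. CCPG1, a receptor for the endoplasmic reticulum, had 8.67, 14.9, 18.5 and 36.4 RPKM. VPS11, a subunit of the tethering complexes for fusion with the lysosome, had 5.3, 18.9, 16.1 and 10.1 RPKM.

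Members that the literature places under the stress factors ATF4 or CHOP (12 of the 36) were counted as a list. Of these, 11 passed the minimum in each medium without CHX, with median log2 ratios of -0.27 in Arg-, 0.05 in Leu- and -0.29 in Met- medium. ATG7 and NBR1 (18.2%) were at least 2-fold higher in Arg- medium, against 8.23% of all genes. NBR1 alone was higher in Leu-, against 6.85%, and in Met- medium, against 20.2%, where GABARAP was lower, against 5.34%. Of 7 autophagy genes placed under TFEB, the regulator of lysosomal genes, 3 passed in Arg-, 3 in Leu- and 4 in Met- medium, with medians of 0.57, 0.14 and 0.46. VPS11 was counted in Arg- (33.3%, against 8.23% of all genes) and Leu- medium (33.3%, against 6.85%). UVRAG and VPS18 were counted in Met- medium (50%, against 20.2%). All 3 were under 10 RPKM in Suff medium. They passed the minimum only through the libraries in which they were higher. In a bulk lysate, a difference in all cells and a larger one in some of the cells cannot be told apart.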

How the data were processed

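The authors trimmed adaptors, kept footprints of 25 to 35 nt, aligned them to the human transcriptome (GRCh38) with Bowtie without mismatches, kept uniquely mapped reads and deposited RPKM per Ensembl transcript. The sample records also name cutadapt. The deposited names of the values without CHX mark removal of duplicate reads, which the methods do not state.

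Transcripts were matched to GENCODE release 44 (96.72% to 97.07% per library), and the highest transcript of each gene was used. Read numbers were recovered from the steps of RPKM times coding length (tolerance 0.01 of a read; 97.15% to 97.35% of matched transcripts were whole), with the stop codon counted without CHX and left out with CHX. They gave exact 95% intervals. Genes listed in both libraries with a mean RPKM of at least 10 were compared as log2 ratios with a pseudocount of 1. No fit or test was made, since each group was 1 library. Shared sequence was searched in windows of 28 nt over all GENCODE transcripts.

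The members and gene lists (markers, 49 further autophagy genes, and lists under ATF4 or CHOP and under TFEB) were chosen with earlier results of these data known. Values in every library are given for members at least 2-fold apart from Suff without CHX, the highest member of each step and those listed in all 8 libraries, and for others chosen after their values were seen (such as TAX1BP1, CALCOCO2 and ULK1). Further autophagy genes are named where at least 2-fold apart in 1 direction in 2 or more media. Values were recomputed with a pseudocount of 0.1, a minimum of 50 RPKM or none, absent mRNAs as 0, the same transcript, summed transcripts, centring on all genes and at least 64 reads. The calculations were tested on simulated data, in Python 3.11.15 with scipy 1.17.1, numpy 2.4.6 and pandas 2.3.3, and plots were drawn with matplotlib 3.10.9.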

Additional observations from a re-analysis of the deposited data

Results flagged for a closer look

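ATG101, the ULK complex subunit, lay on opposite sides of Suff in 2 media without CHX: its log2 ratio was -0.76 in Leu- and 1.15 in Met- medium, with intervals of the fold that both excluded 1 (0.404 to 0.826 and 1.76 to 2.83). The difference between the media was not tested, since each was 1 library.

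WIPI2 had log2 ratios of -0.48 in Arg-, 0.39 in Leu- and 0.98 in Met- medium without CHX, and of -0.70 in Arg- and 0.80 in Met- medium with CHX, so that Arg- and Met- media lay on opposite sides of Suff in both series. Relative to the median of all genes, the Met- value of WIPI2 with CHX was -0.08. ATG9A did so with CHX, at -0.63 in Arg- and 1.12 in Met- medium, the latter 0.23 relative to the median of all genes. With CHX, WIPI2 and ATG9A could be listed in Met- medium only above their Suff values, so their side there was fixed by the read minimum. These differences were not tested either.

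SQSTM1 in Met- medium had a log2 ratio of -0.26 without CHX and 2.02 with CHX, on opposite sides of Suff in the 2 series, while in Arg- medium without CHX it had 0.57. With CHX, SQSTM1 could be listed in Met- medium only above its Suff value, so its side there was fixed by the read minimum. The difference between the series was not tested.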

How the results depend on the processing

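Of 96 values recomputed (the median log2 ratio and the count of members at least 2-fold apart, for 6 comparisons and 8 alternatives), 86 stayed within the interval of the median or within 1.5 times the count, and no single-member ratio that was counted changed sign. A minimum of 50 RPKM left 0 members at least 2-fold apart in Arg- and 0 in Leu- medium without CHX, 2 in Met- without CHX, and 2 each in Arg- and Leu- with CHX, from 9 or 10 members. With no minimum, Leu- without CHX had 2. Centring on all genes gave 4 in Met- without CHX. Counting absent mRNAs as 0 gave 8 in Arg- with CHX, and in Met- with CHX 11 of 13 members and a median of -5.12, since mRNAs under 64 reads were not listed there. The cause of the other shifts was not tested. The medians that stayed within their interval still ranged from -0.23 to 0.29 in Arg-, -0.00 to 0.32 in Leu- and 0.19 to 0.76 in Met- medium without CHX, so the sign of the first 2 is not settled. No paired analysis was possible because each condition was 1 library. Depth limits members under about 10 RPKM, and Met- with CHX, where 5 members were listed.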
